A study of Danio rerio with 4 samples.

Results

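The proteasome subunit genes were followed in zebrafish embryos, taken whole at 36 hours post fertilisation (hpf). They were taken as every gene whose single symbol in the platform annotation begins with psma, psmb, psmc, psmd, psme, psmf or psmg followed by a number. This gave 50 genes on 61 probe sets, of 8793 genes and 15502 probe sets in all, and each gene was read on its brightest probe set. The tested embryos were raised in 1% glucose in E3, the usual embryo medium, from 12 to 36 hpf, and the control embryos are labelled only as controls. There were 2 biological replicates per group, each on its own Affymetrix array, 4 arrays in all. No strain, genotype or clutch is given in the sources used here, so the spread between replicates may be technical as well as biological. Whole embryos were measured, so fewer cells of a type and less RNA per cell cannot be told apart.

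The proteasome is the protease that degrades proteins marked with ubiquitin. Its core particle is a barrel of alpha subunits (psma genes), which form the outer rings and the gate, and beta subunits (psmb genes), which form the inner rings and carry the active sites. The regulatory particle caps the barrel: its base holds the ATPases (psmc genes), which unfold the substrate and feed it into the core, and its lid and base hold further non-ATPase subunits (psmd genes), which bind ubiquitin chains and remove them. The psme genes encode activators that bind the core without needing ubiquitin, psmg genes encode chaperones of core assembly, and psmf1 encodes a proteasome inhibitor. In mammals, dedicated beta subunits replace the catalytic ones in immune cells and after interferon.

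No proteasome gene passed the test for a difference between glucose and control embryos. The direction of the small differences was largely shared: 39 of the 48 tested genes had a lower mean log2 signal in glucose and 9 a higher one (35 and 13 without glucose replicate 1). Of all tested probe sets 49.8% had a lower one. The median difference over the 48 genes, glucose minus control, was -0.12 on the log2 scale, a ratio of 0.922 (glucose over control), against 0.0015 over all 13628 tested probe sets. All 7 standard beta ring genes were lower on both glucose arrays than on both control arrays, as were 20.3% of all tested probe sets. The inducible beta genes were too dim to read.

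The median intensity lay between 171 and 175 on the 4 arrays, and 58.4% to 59.3% of the probe sets read above 118. That is the brightest of 17 tag probe sets, whose sequences match no fish transcript, and it is called the tag level here: a signal below it was not told from background. As a check of RNA integrity, the actin control gave a 3' over 5' signal ratio of 2.49 and 2.14 on the glucose arrays, against 2.36 and 2.24 on the control arrays, and the GAPDH control 1.66 and 1.63 on the glucose arrays, against 1.45 and 1.78 on the control arrays. Markers matched the labelled tissue: all 4 measured muscle, 5 neuron, 4 epidermis and 4 erythroid markers read above the tag level on every array. Lymphoid (rag1, rag2, ikzf1) and germ cell markers (ddx4, dazl, piwil1, nanos3) read below it on every array, as did the liver marker fabp10a and the endothelial marker tie1. The other measured endothelial marker, kdrl, and the liver markers tfa and serpina1l read above it on every array. Among the erythroid markers, all 4 were higher in glucose and 3 passed, with a summed intensity of 56765 and 53551 on the glucose arrays, against 45717 and 42290.0 on the control arrays. Most of that sum came from hbae3, which did not pass (difference 0.24), and the 3 that passed differed by 0.69 to 0.79. Of the 3 measured liver markers 2 passed as higher, and of the epidermis markers 1, agr2, passed as lower. Among all tested probe sets 1.29% passed as higher and 0.712% as lower. In 20.3% of them both glucose arrays read below both control arrays, without overlap. All 4 epidermis markers had a negative difference, 2 without overlap, with a summed intensity of 54381 and 54384 on the glucose arrays, against 60969 and 55560.5 on the control arrays. Most of that sum came from krt4, whose groups overlapped. All 5 neuron markers had a negative difference too, 3 without overlap and 0 passing by limma with trend, with a median of -0.17 and a summed intensity of 10145 and 9705 on the glucose arrays, against 11414 and 10632 on the control arrays. The part of cell make-up in these marker differences and in the proteasome values was not tested.

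Of the 50 genes, 41 read above the tag level on all 4 arrays and 8 read below it on all 4. Glucose and control arrays were compared by limma with a variance that follows intensity, with Benjamini-Hochberg adjustment over all 13628 probe sets that had a log2 signal of at least 5 on at least 2 arrays, and an adjusted p under 0.10 was taken as passing. psmb8a and psmb13a did not reach that filter and were not tested. Counted over all 50 genes, 40 had a negative difference and 10 a positive one. In this test 2.00% of all probe sets passed, 1.29% higher and 0.712% lower in glucose, against 0 of the 48 proteasome genes (smallest adjusted p = 0.229, for psmb1). At an unadjusted p under 0.05, 6 proteasome genes were lower in glucose (12.5%, against 5.26% of all probe sets) and 0 were higher (against 6.22%). When limma was run without the intensity trend, 0 probe sets of any kind passed (0.00%), no proteasome gene reached an unadjusted p under 0.05 (against 3.96% of all probe sets lower and 4.50% higher), and the smallest adjusted p among them was 0.635. The differences depended on the control arrays. Leaving out control replicate 2 gave -0.51 for psmb1, -0.40 for psmb7, -0.36 for psma5, -0.32 for psmd8 and -0.31 for psmb6. Leaving out control replicate 1 gave -0.18, -0.14, -0.20, -0.23 and -0.19 for these genes in the same order. Between these fits psmb10 went from 2.15 to -0.18 and psma6l from -0.55 to 2.17. Both psmb10 and psma6l lay below the tag level on all 4 arrays. Each such fit keeps only 1 control array.

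Groups that do not overlap were counted as a second description. Both glucose arrays read below both control arrays for 27 of the 48 tested genes (56.2%), against 20.3% of all tested probe sets, and above both for 3 (against 20.7%). Among the 29 genes with a mean log2 signal of at least 10, an intensity of 1024, 23 were lower without overlap and 0 higher, against 26.2% and 23.0% of all 1693 named genes that bright. At an unadjusted p under 0.05, 5 of the 29 were lower, against 8.39% of the 1693. The median difference was -0.13 for the 29 genes and -0.0134 for the 1693. The genes were measured on the same 4 arrays and are not independent of each other, so these shares carry no test. With 2 arrays per group, the smallest two-sided p an exact permutation test of a single gene could give is 0.333.

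**Figure D1:**
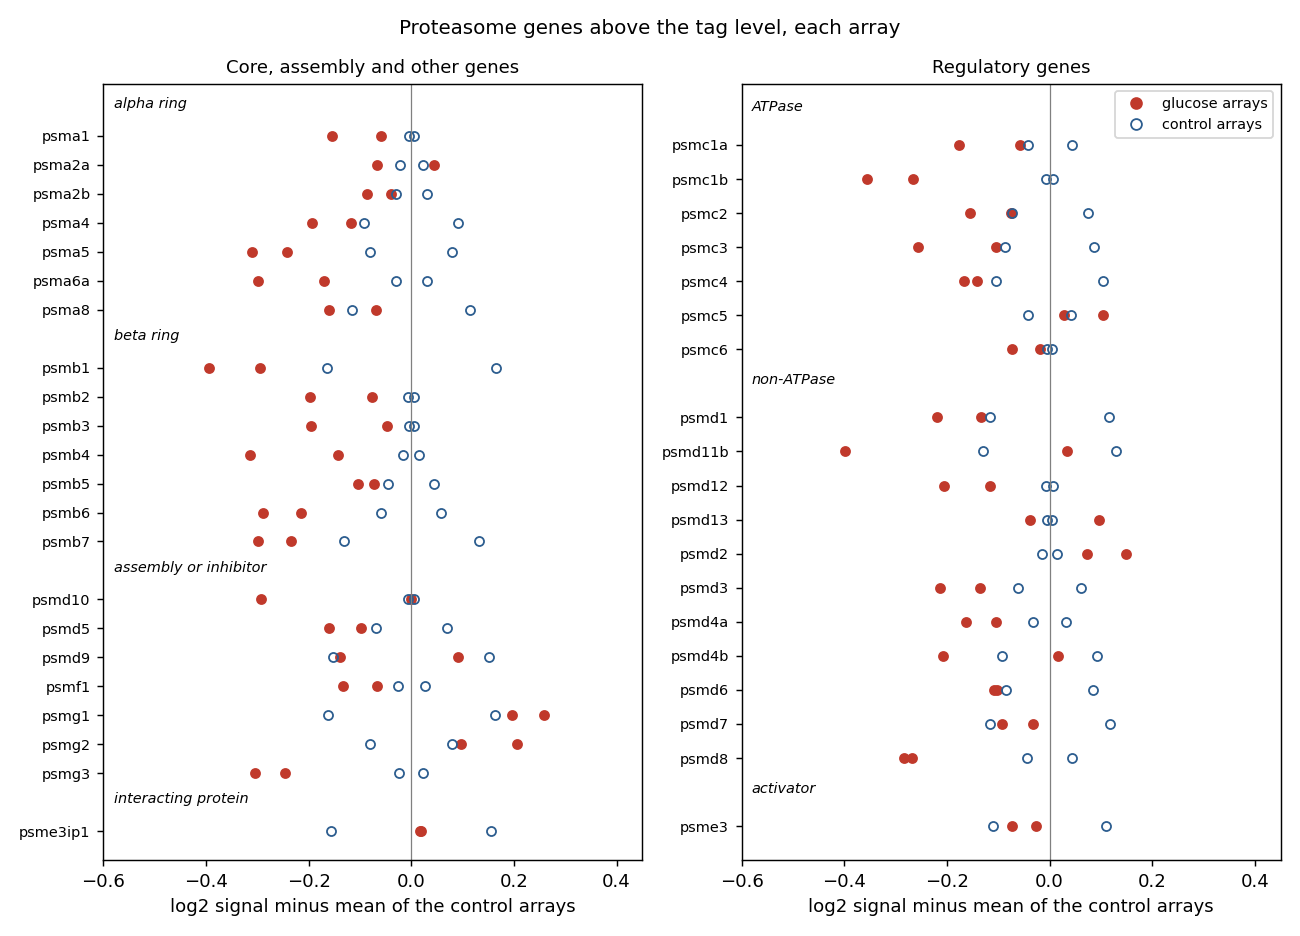
Each row is a proteasome gene above the tag level on all 4 arrays, and the x axis gives its log2 signal on each array minus the mean of the control arrays. Filled points are the 2 glucose arrays and open points the 2 control arrays; for every beta ring gene both filled points lie left of both open points, whereas psmg1, psmg2 and psmd2 have both to the right.

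The alpha ring genes were lower in glucose in 7 of 8 cases, and 5 of the 8 were lower without overlap (against 20.3% of all tested probe sets). The alpha subunit gene psma5 had an intensity of 2496 and 2617 on the glucose arrays, against 3271 and 2927 on the control arrays. Both glucose values lay below both control values, with a log2 difference of -0.28 (95% interval -0.52 to -0.03, adjusted p = 0.36 by limma with trend). For psma6a the intensities were 2740.3 and 2506 in glucose, against 3148 and 3019 in control embryos, again without overlap, and the difference was -0.23 (95% interval -0.47 to 0.0055, adjusted p = 0.451). The gate-forming barrel end also holds psma4, which read 5079.5 and 4817 in glucose, against 5869 and 5166 in controls, a difference of -0.15 (adjusted p = 0.639). The groups of psma4 did not overlap, but control replicate 2 lay close to the glucose arrays.

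Smaller differences were found for the other alpha genes. psma1 differed by -0.11, psma8 by -0.11 and psma2b by -0.06, and the groups of psma8 overlapped. In mammals, PSMA8 is known as a form of germ cells; in these embryos its probe set read between 4418 and 5349 while all 4 germ cell markers lay below the tag level. The psma2b paralog psma2a had intensities of 2399 and 2221 in glucose, against 2363 and 2290.1 in controls, with overlapping groups and a difference of -0.01 (95% interval -0.26 to 0.23). The second psma6 gene, psma6l, read 58.5 and 93.3 in glucose, against 108 and 16.4 in controls. All 4 values lay below the tag level, and its difference of 0.81 (95% interval -0.56 to 2.18) turned to -0.55 without control replicate 2, so no direction was detectable.

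The beta ring was the class with the largest median difference among those above the tag level, -0.23 over 7 genes, a glucose to control ratio of 0.853. Of all 48 tested genes psmb1, a structural beta subunit, had the smallest p. It read 4809.7 and 5152 on the glucose arrays, against 7081 and 5634 on the control arrays. Control replicate 1 stood above control replicate 2 by more than the gap between control replicate 2 and the glucose arrays. The mean intensity was 4981 ± 242 in glucose embryos and 6358 ± 1023 in controls (SD, n = 2 each), and the log2 difference was -0.34 (95% interval -0.59 to -0.10, adjusted p = 0.229 by limma with trend). Without control replicate 2 the difference was -0.51, and without control replicate 1 it was -0.18. Each of these fits keeps 1 control array and so takes no spread from the controls.

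Among the 3 catalytic subunit genes, 2 had similar differences. The trypsin-like subunit gene psmb7 had intensities of 5400.0 and 5165 in glucose, against 6959 and 5803 in controls, a difference of -0.27 (95% interval -0.50 to -0.03, adjusted p = 0.354). Its control arrays stood further apart than the gap between the groups, and without control replicate 1 the difference was -0.14. Values for psmb6, the caspase-like subunit, were 3493 and 3678 in glucose, against 4446 and 4100.5 in controls, a difference of -0.25 (adjusted p = 0.377). The chymotrypsin-like subunit gene psmb5 read 2097 and 2145 in glucose, against 2325 and 2186 in controls. Its groups did not overlap either, yet its difference of -0.09 (95% interval -0.33 to 0.16) was the smallest of the ring. Among the other structural subunits, psmb4 read 4106 and 3645 in glucose, against 4584 and 4488 in controls, a difference of -0.23 (adjusted p = 0.44). For psmb2 the difference was -0.14 and for psmb3 -0.12, each without overlap.

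The 5 inducible beta genes gave no readable signal. In the RefSeq gene order of assembly GRCz12tu, psmb13a, psmb8a, psmb12 and psmb9a lie next to each other with no other protein-coding gene between them, and psmb10 lies on another chromosome. In mammals, the relatives of psmb8a, psmb9a and psmb10 replace the catalytic subunits psmb5, psmb6 and psmb7 in the immunoproteasome. All 20 readings of the 5 genes lay between 6.81 and 80.8, below the tag level. psmb8a read 6.81 and 21.4 in glucose, against 10.1 and 18.5 in controls, and psmb9a read 25.8 and 36.4 in glucose, against 20.2 and 59.1 in controls. psmb10 had the largest fitted difference of any member, 0.99, from 67.4 and 75.5 in glucose, against 16.0 and 80.8 in controls. Only control replicate 1 was low, and the groups overlapped. A change within this range of signal was not detectable on these arrays.

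The ATPases of the base were lower in glucose in 6 of 7 cases, and in each of these 6 the groups did not overlap on the brightest probe set. For psmc1a, psmc2, psmc3 and psmc6 the margin between the groups was narrow. Of all tested probe sets 20.3% were lower without overlap. The median over the 7 genes was -0.12. psmc1b read 711 and 668 on the glucose arrays, against 851 and 859 on the control arrays, with replicates closer together than the groups and a difference of -0.31 (95% interval -0.61 to -0.01, adjusted p = 0.407 by limma with trend). A second psmc1b probe set with almost the same mean signal read 759 and 744 in glucose, against 753 and 815 in controls. On that probe set the groups overlapped and the difference was -0.06, so the value of psmc1b depends on the probe set. Its paralog psmc1a had intensities of 3459 and 3187 in glucose, against 3495 and 3709 in controls, a difference of -0.12 (adjusted p = 0.754).

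The ATPase gene psmc3 read 5268 and 4744 in glucose, against 6018 and 5332 in controls, a difference of -0.18 (adjusted p = 0.569). Values for psmc4 were 2873 and 2823 in glucose, against 2947 and 3404 in controls, a difference of -0.15 (adjusted p = 0.672). For psmc3 and psmc4 alike, the control arrays stood further apart than the gap between the groups. psmc2 and psmc6 differed by -0.12 and -0.05. The higher glucose value of psmc2 was 3533, against a lower control value of 3537. For psmc6 these values were 3557 and 3591. psmc5 was the exception: it read 2347 and 2229 in glucose, against 2249 and 2121 in controls, with overlapping groups and a difference of 0.07 (95% interval -0.18 to 0.31).

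Of the 11 non-ATPase subunit genes of the regulatory particle, 9 were lower in glucose, 6 of them without overlap (against 20.3% of all tested probe sets). Their median was -0.13. The lid gene psmd8 read 3661 and 3624 in glucose, against 4547 and 4275 in controls. The glucose arrays were close together and well below the controls, with means of 3643 ± 26.2 in glucose embryos and 4411 ± 192 in controls (SD, n = 2 each), a log2 difference of -0.28 and a 95% interval from -0.50 to -0.05 (limma with trend, adjusted p = 0.314). The lid gene psmd3 had intensities of 2527 and 2394 in glucose, against 2898 and 2659 in controls, a difference of -0.17 (adjusted p = 0.616). For psmd12, another lid subunit, the brightest probe set read 2918 and 2741 in glucose, against 3147 and 3175 in controls, a difference of -0.16. A dimmer psmd12 probe set gave -0.27, also without overlap. Across the 7 lid genes the median was -0.16, against -0.12 for the 11 genes of the base, and the gap between them was not tested.

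The base scaffold gene psmd1 was measured on 2 bright probe sets. The brighter one read 1659 and 1761 in glucose, against 2094 and 1782 in controls, a difference of -0.18 (adjusted p = 0.653), and the other 1601 and 1518 in glucose, against 1897 and 1942 in controls, a difference of -0.30 (95% interval -0.56 to -0.04). Both probe sets had groups that do not overlap. On the brighter one control replicate 2 lay close to the glucose arrays, and without control replicate 1 its difference was -0.06. The other base scaffold, psmd2, lay the other way on both glucose arrays, at 753 and 794, against 709 and 723 in controls, a difference of 0.11 (95% interval -0.19 to 0.41). The ubiquitin receptor genes psmd4a and psmd4b differed by -0.13 and -0.10, and only psmd4a had groups that do not overlap. psmd7, the partner of the deubiquitinating lid subunit, differed by -0.06 and psmd13 by 0.03, both with overlap.

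**Figure D2:**
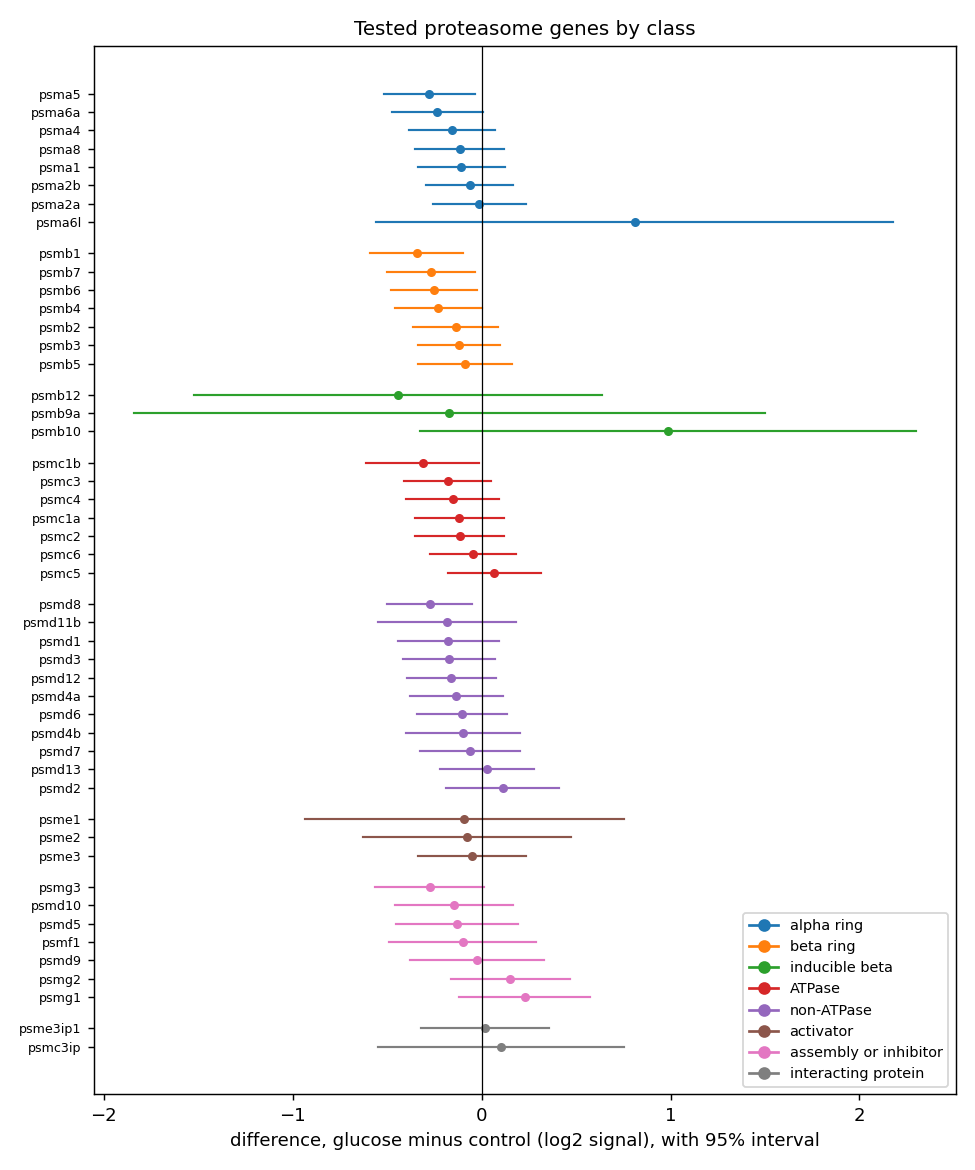
The x axis gives the difference in log2 signal, glucose minus control, of each of the 48 tested genes, with its 95% interval from limma with trend, ordered by class. Most points lie between -0.35 and 0, and the wide intervals belong to the dim genes psma6l, psmb9a, psmb10, psmb12, psme1, psme2 and psmc3ip.

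The activator genes showed no separation between the groups. psme3, whose product is a nuclear activator in mammals, read 1107 and 1071 in glucose, against 1044 and 1217 in controls, a difference of -0.05 (95% interval -0.34 to 0.24). psme1 and psme2, which form the interferon-inducible activator in mammals, read between 52.9 and 142 and were near or below the tag level. Their differences were -0.09 and -0.08, with intervals from -0.94 to 0.75 and from -0.63 to 0.47. The sign of all 3 depended on single arrays: without control replicate 2 psme3 differed by 0.06 and psme2 by 0.11, and without glucose replicate 1 psme1 differed by 0.15.

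The assembly factors and the inhibitor were mixed: of 7 genes, 5 were lower and 2 higher in glucose, and both of the higher ones encode core chaperones. psmg1 and psmg2, whose products pair to build the alpha ring in humans and yeast, both lay higher: psmg1 read 562 and 539 in glucose, against 526 and 420.4 in controls, a difference of 0.23 (adjusted p = 0.654). psmg2 read 657 and 709 in glucose, against 649 and 581 in controls, a difference of 0.15 (adjusted p = 0.764). A dimmer psmg1 probe set gave a difference of 0.01 with overlapping groups. The third core chaperone gene, psmg3, lay in the opposite direction, at 784 and 818 in glucose, against 985 and 954 in controls, a difference of -0.28 (95% interval -0.56 to 0.01, adjusted p = 0.468). Of the genes known in humans as chaperones of base assembly, psmd10 differed by -0.15, psmd5 by -0.13 and psmd9 by -0.02. A dimmer psmd9 probe set gave a difference of 0.22 with overlapping groups. psmd10 read 677 and 828 in glucose, against 825 and 832 in controls, so that only glucose replicate 1 was low. The inhibitor gene psmf1 differed by -0.10 on its brightest probe set and by 0.08 on the other. The psmc3ip and psme3ip1 genes match the pattern by name but encode interacting proteins that are no subunits. On their brightest probe sets they differed by 0.10 and 0.02. The dimmer psme3ip1 probe sets gave differences from -0.15 to 0.51, and the one at 0.51 lay below the tag level on every array. The dimmer psmc3ip probe set lay below the tag level on every array and was not tested.

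The core (psma and psmb) was then set beside the regulatory genes (psmc, psmd and psme). Of 18 tested core genes 16 were lower in glucose, 12 without overlap, with a median difference of -0.15. Of 24 regulatory genes 21 were lower, 13 without overlap and 1 higher without overlap, with a median of -0.12. The 24 include psmd5, psmd9 and psmd10, which were also counted above with the assembly factors. Without psmd5, psmd9 and psmd10 the regulatory median was -0.116. Among all tested probe sets 49.8% had a negative difference, 20.3% were lower without overlap and 20.7% higher without overlap. Restricted to genes above the tag level on all arrays, all 14 core genes and 19 of 22 regulatory genes were lower. The gap between core and regulatory medians, as log2 signal relative to the control mean, was 0.0145 and -0.104 on the glucose arrays, against 0.038 and -0.038 on the control arrays. Both control values are measured from their own mean, so each mirrors the other. The ranges overlapped, so a difference between core and regulatory genes was not seen beyond the spread between arrays. The gap between their median differences was -0.0295 with 4 arrays, 0.0145 without glucose replicate 2 and -0.13 without control replicate 2.

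Class medians relative to the control mean were lower on both glucose arrays than on both control arrays for the alpha ring, the beta ring, the ATPases and the non-ATPase subunits. For the beta ring they were -9.46% and -13.9% on the glucose arrays, against 3.13% and -3.03% on the control arrays. For the ATPases they were -5.11% and -10.9% in glucose, against 0.328% and -0.327% in controls. The control values mirror each other because they are measured from their own mean. The assembly and inhibitor genes overlapped.

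**Figure D3:**
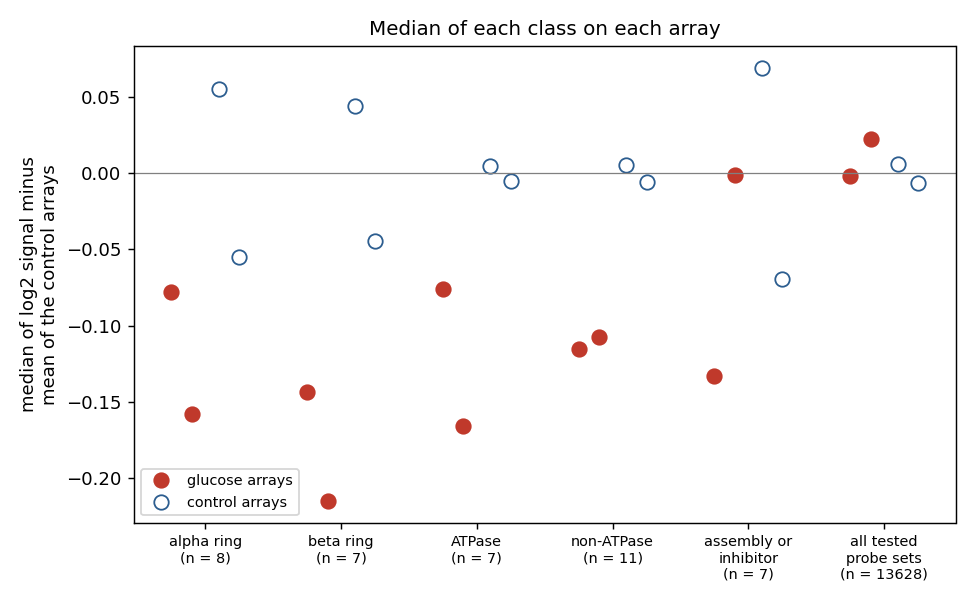
Each point is the median over a class of the log2 signal on 1 array minus the mean of the control arrays, with the number of genes below the class name. Filled points (glucose) lie below open points (control) in the 4 subunit classes, whereas the medians of all 13628 tested probe sets lie between -0.01 and 0.03 on every array.

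Under limma with trend, the intervals limit how large a missed difference could be, and that limit holds for this fit only. Without the trend the standard error of psmb1 was 0.181, against 0.117 with it, and that of psmc1b was 0.138, against 0.142. For 39 of the 48 tested genes the 95% interval with the trend lay within 1.5-fold in either direction (0.585 on the log2 scale). It is not adjusted for the number of genes. The exceptions were psmb1 and psmc1b, whose lower bounds of -0.59 and -0.61 lay just outside, and the 7 dim genes psma6l, psmb9a, psmb10, psmb12, psme1, psme2 and psmc3ip. The dependence of the spread on signal level is seen in the plot of difference against level.

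**Figure D4:**
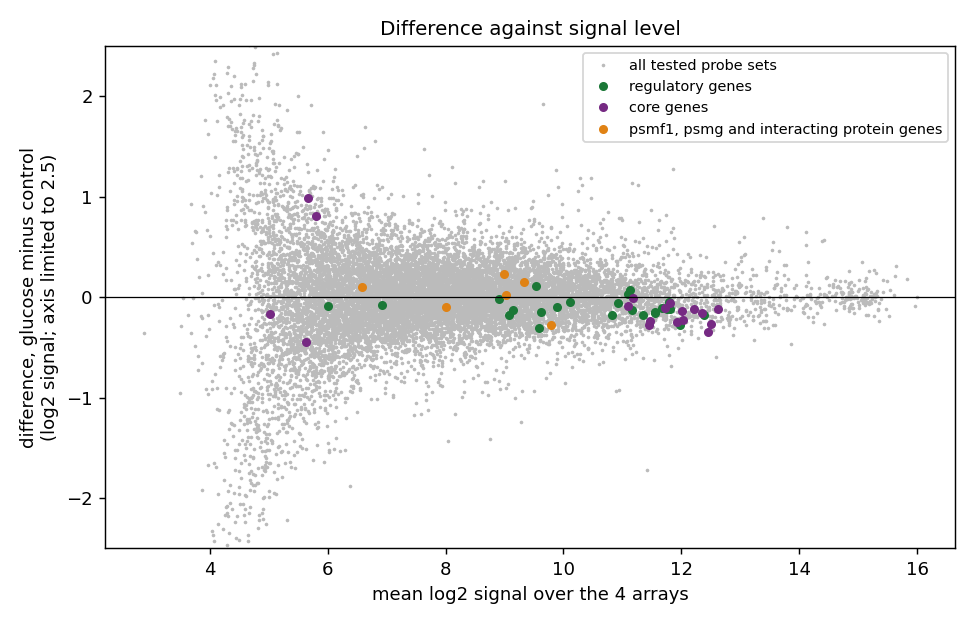
The x axis is the mean log2 signal over the 4 arrays and the y axis the difference in log2 signal, glucose minus control, for all tested probe sets (grey) and the proteasome genes (coloured by particle). The bright proteasome genes form a narrow group mostly below 0, and the dim ones scatter as widely as other dim probe sets.

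Genes that act with the proteasome were described from lists. Of 12 tested factors bound to the proteasome or needed for its assembly under other names, 8 were lower and 4 higher in glucose, with a median of -0.03. By limma with trend 0 passed, against 2.00% of all tested probe sets. At an unadjusted p under 0.05, 0 were higher and 2 lower (16.7%), against 6.22% higher and 5.26% lower among all tested probe sets. The lower ones included txnl1, a thioredoxin-like protein bound to the regulatory particle, at 1254 and 1309.6 in glucose, against 1799 and 1593 in controls (difference -0.40, adjusted p = 0.182). sem1, the smallest lid subunit, read 2150.3 and 2386 in glucose, against 2794 and 2790.5 in controls (difference -0.30, adjusted p = 0.308). For pomp, the chaperone that matures the core, the difference was -0.20, whereas the ubiquitin receptor adrm1 and the deubiquitinase usp14 differed by -0.05 and -0.01.

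The wider ubiquitin system was mixed. Of 27 genes of ubiquitin and its activating and conjugating enzymes, 17 were lower and 10 higher, with a median of -0.03. The smallest p belonged to cdc34b, a conjugating enzyme that was higher in glucose by 0.37, while its paralog cdc34a differed by -0.31 (adjusted p = 0.325 and 0.434), and ube2q1 differed by 0.35. Of 22 genes of the p97 unfoldase and of retrotranslocation from the endoplasmic reticulum, 14 were lower and 8 higher, with a median of -0.09. They held edem1 at 213 and 184 in glucose, against 299 and 315 in controls (difference -0.63, adjusted p = 0.147), and herpud1 at 453 and 430.2 in glucose, against 322 and 327 in controls (difference 0.44, adjusted p = 0.289). No gene of either list passed by limma with trend; at an unadjusted p under 0.05 there were 2 higher and 1 lower in the ubiquitin list and 1 each way in the p97 list, against 6.22% higher and 5.26% lower among all probe sets. Of the 19 listed regulators of proteasome genes, only 5 were tested, and ngly1 (0.18) and maff (-0.17) had the smallest p, both with an adjusted p of 0.78 or more. Of 9 tested antigen processing and interferon genes, 6 were higher and 3 lower in glucose, with a median of 0.18, and 0 passed by limma with trend (0 higher and 1 lower at an unadjusted p under 0.05). Among these 9 genes, 1 read above the tag level on all arrays, and tapbp.1 and cd74a (differences -0.91 and -1.34) were partly or wholly below it.

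Other large complexes were read the same way for comparison. The COP9 signalosome is a relative of the lid built from related subunits, and 6 of its 7 measured genes were lower in glucose, with a median of -0.10 and 1 without overlap (against 20.3% of all tested probe sets). Its cops3 and cops5 genes differed by -0.23 and -0.21. The translation factor eIF3 is the third complex of that architecture, and 12 of its 13 genes were higher, 7 without overlap (against 20.7% of all tested probe sets), with a median of 0.14. Its eif3g (0.22) and eif3ba (0.20) had the smallest p, and eif3jb (0.31) and eif3eb (0.25) the largest positive differences. In the CCT chaperonin, which folds actin and tubulin, 6 of 8 genes were higher, with a median of 0.06; cct6a differed by 0.28 and tcp1 by -0.16. The 68 ribosomal protein genes had 35 higher and 33 lower, with a median of 9e-04. None of these genes passed by limma with trend, against 2.00% of all tested probe sets. At an unadjusted p under 0.05 there were 1 higher CCT gene of 8, 1 higher ribosomal gene of 68, and 0 in COP9 and eIF3. Among all tested probe sets 6.22% were higher and 5.26% lower at that unadjusted p. The difference between these complexes and the proteasome was not tested.

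**Figure D5:**
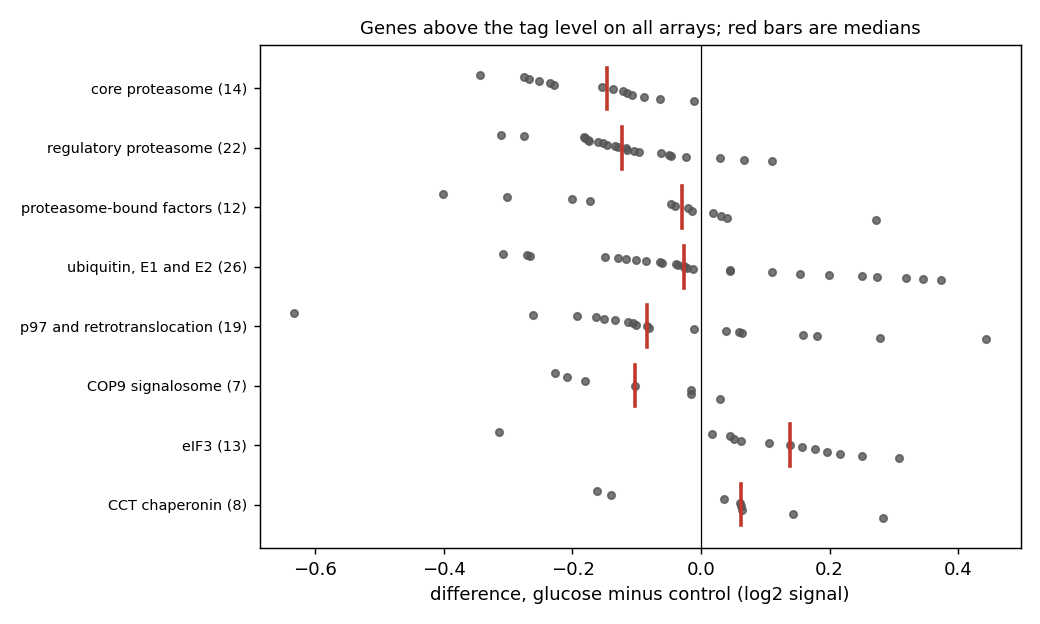
Each point is the difference in log2 signal, glucose minus control, of 1 gene above the tag level on all arrays, grouped by list with the number of genes in brackets, and red bars are medians. The core and regulatory proteasome genes and COP9 lie mostly left of 0, and eIF3 mostly right of it.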

How the data were processed

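Linear intensity values of the probe sets were deposited by the authors and used as given. The submitters' processing notes name GCRMA, without a version; all 4 arrays share a mean of 500.15 to 500.16 once the outer 2% on either side are trimmed and low values are noisy, so the method and any background correction stay unknown. Symbols came from the platform annotation and were set against RefSeq (GRCz12tu) by gene ID, which matched all 61 member probe sets and changed 0 symbols. After leaving out 115 control probe sets, log2 intensities were compared with limma 3.58.1 (R 4.3.3; lmFit, eBayes with trend) without further scaling; tables and plots used Python 3.11.15, pandas 2.3.3 and matplotlib 3.10.9. On simulated arrays with 13628 probe sets, 81.8% of 1.5-fold changes were found with the trend and 0% without. The changed probe sets were drawn above a signal limit lower than the intensity of 1024 used for bright genes. The simulated variance followed intensity alone, as the trend assumes, so these shares do not measure what would be found on the real arrays. Only 2 residual degrees of freedom and 4 arrays limit the precision.

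The members, lists, tests and the choice of the trend fit were made with earlier results of these data known. Values on every array were given for up to 4 genes of smallest p in each of 6 classes, and up to 2 genes per list; psma2a, psmb5, psmb8a, psmb9a, psmb10, psmc5 and psmd2 were also given on every array, chosen after their values were seen, and other members are named for completeness. psme3ip1 and psmc3ip were set apart from the regulatory genes by name. Same-numbered replicates did not deviate together (r = -0.0228 across 13628 probe sets). No sequences are shown.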

Additional observations from a re-analysis of the deposited data

How the results depend on the processing

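With 2 arrays per group, single arrays moved several results, and the causes were not tested. A fit with 1 array left out keeps only 1 array of that group and takes no spread from the group. For all probe sets, the trend test gave 176 higher and 97 lower; these counts were 0 and 0 without the trend, 117 and 57 without a filter, 110 and 51 at adjusted p under 0.05, and 847 and 717 at unadjusted p under 0.05. Leaving out each array gave between 88 and 578 higher and between 59 and 356 lower. Proteasome genes past the threshold went between 0 and 1 (higher) and between 0 and 5 (lower) when each array was left out, and 6 were lower at unadjusted p under 0.05; under the other settings, among them the replicate block, both counts were 0. With the replicate number as a block, 188 and 113 probe sets passed by limma with trend, and the smallest adjusted p of a proteasome gene was 0.18. The labels do not say whether same-numbered samples were paired.

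The median of the proteasome genes, -0.12, stayed negative throughout: -0.0963 after quantile normalization and from -0.139 to -0.104 when each array was left out. The core median ran from -0.237 to -0.0957 and the regulatory median from -0.124 to -0.0905 when each array was left out. The regulatory median was -0.101 after quantile normalization, -0.126 after median centring, and, in settings chosen after seeing the data, -0.11 with both interacting proteins counted and -0.123 for genes above the tag level. The gap between core and regulatory medians ran from -0.13 to 0.0145 when each array was left out. After quantile normalization the core median was -0.0978 and the gap was 0.0036. Genes with a positive difference numbered 5 in place of 9 without assembly factors, the inhibitor and the interacting proteins, and 6 above the tag level; they numbered 9 to 13 when each array was left out. Of the 48 tested genes 15 changed sign when 1 array was left out, 9 of them with a difference within 0.1. Among the up to 4 genes of smallest p per class, those that changed sign were psma6l (-0.55 to 2.17), psme3 (-0.16 to 0.0612), psme2 (-0.267 to 0.115) and psme1 (-0.336 to 0.152). Of the genes given on every array after their values were seen, psma2a, psmb9a and psmb10 changed sign. psmb10 differed by 2.15 without control replicate 2 and by -0.18 without control replicate 1.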
